A study of Mus musculus with 4 samples.

Results

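The nuclei described here were GABA nuclei of the mouse brain that carried Adarb2 together with Lamp5, Ndnf or Reln and had no UMI (a counted RNA molecule) of Vip or Sst. A nucleus was taken when it had at least 1 UMI of Gad1 or Gad2, at least 3 of Adarb2, at least 2 of Lamp5, Ndnf and Reln together and at most 1 of Slc17a7. The rule took 799 of 52132 nuclei: 235 of 16114 in WT replicate 1, 269 of 15247 in WT replicate 2, 161 of 9589 in Csf1r+/- replicate 1 and 134 of 11182 in Csf1r+/- replicate 2. The libraries came from whole brains of perfused, untreated 2-month-old female mice of strain C57/BL6. WT mice had both copies of Csf1r, the receptor for CSF-1 and IL-34, and Csf1r+/- mice lacked 1 copy. The study used 3 mice per genotype, of which the third library of each was not analysed here, so each genotype had n = 2 libraries. Values for each library are given below in the order WT replicate 1, WT replicate 2, Csf1r+/- replicate 1 and Csf1r+/- replicate 2. Summed over the chosen nuclei the depth was 1908020, 2172883, 1646094 and 1046533 UMIs, and the median nucleus had 6008, 6264, 7805 and 6488 UMIs. Levels are given as CPM, the UMIs of a gene in the summed nuclei scaled to a common total.

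Adarb2 encodes a brain protein of the RNA-editing deaminase family and marks cortical interneurons that arise in the caudal ganglionic eminence, a fold of the embryonic forebrain. The Adarb2 interneurons without Vip include neurogliaform cells, which release GABA diffusely and are known for Lamp5, a membrane protein of the endolysosomal family, and for Ndnf, a secreted growth factor found in layer 1. Reln encodes reelin, a large secreted protein read by the lipoprotein receptors Vldlr and Lrp8 and the adaptor Dab1, and it is also made by many Sst interneurons. Csf1r is a microglial receptor in the brain, so the genotype comparison asks whether these neurons differ in animals with 1 copy of it.

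The labels were checked first. In nuclei with microglial markers Csf1r stood at 517, 390, 365 and 265 CPM, a mean of 454 ± 89.2 in WT and 315 ± 70.2 in Csf1r+/- (SD, n = 2), and the libraries of the genotypes did not overlap. The share of these nuclei with a Csf1r UMI did not overlap either, at 56.3%, 63.4%, 53.5% and 50.4%. Thinned to 2000 UMIs, which left 27, 75, 44 and 42 nuclei, it did overlap, at 25.9%, 44.0%, 43.2% and 31.0%. In excitatory nuclei the share ran the other way, at 0.211%, 1.83%, 5.19% and 5.08% without thinning and 0%, 0.141%, 0.895% and 0.837% with it. Without thinning Csf1r therefore ran with the labels in microglial nuclei and against them in excitatory nuclei, and it does not settle the labels. Where the deleted part lies relative to the counted 3′ tags is not given in the sources used here. In the chosen nuclei Csf1r stood at 3.14, 6.44, 6.68 and 3.82 CPM, with the 2 higher values in WT replicate 2 and Csf1r+/- replicate 1. WT replicate 2 stood apart in RNA of other cells: the 7 oligodendrocyte markers summed to 711 CPM in its chosen nuclei, against 93.3, 199 and 92.7 CPM in the other libraries, and its median share of mitochondrial UMIs was 0.596%, against 0.206%, 0.369% and 0.152%. Genotype differences called in genes that stood high in it are given with and without it. Any 2 libraries shared between 35 and 75 cell barcodes.

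The genes of the rule lie on GRCm38 at chr13:8202866-8768747 for Adarb2, chr2:136052239-136069917 for Lamp5, chr6:65671590-65712326 for Ndnf, chr5:21884454-22344702 for Reln, chr2:70553072-70602014 for Gad1 and chr2:22622205-22693874 for Gad2. Their values chose the nuclei and are given as a description. Adarb2 stood at 5556, 3794, 4470 and 5843 CPM, with a median of 22 UMIs and a highest value of 760 UMIs per nucleus. Reln stood at 1118, 928, 824 and 1003 CPM, Ndnf at 104, 98.5, 96.6 and 89.8 CPM, and Lamp5 at 61.8, 51.5, 71.7 and 78.4 CPM. WT replicate 2 had the lowest Adarb2 and the lowest Lamp5, and Csf1r+/- replicate 1 the lowest Reln.

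Reln was the gene by which most of these nuclei entered. A Reln UMI was present in 721 of the 799 nuclei (90.2%), a Lamp5 UMI in 248 (31.0%) and an Ndnf UMI in 235 (29.4%). Reln was the only one of the 3 in 409 nuclei (51.2%). Ndnf and Reln occurred together in 122 nuclei, Lamp5 and Reln in 104, all of them in 86, and Lamp5 and Ndnf without Reln in 7. Lamp5 was alone in 51 and Ndnf in 20. The share with Reln alone was 54.0%, 50.2%, 47.2% and 53.0% by library, and no combination other than the rarest was missing from any library. Among excitatory nuclei (at least 3 Slc17a7 UMIs, no Gad1 or Gad2), whose median nucleus had 10939 UMIs against 6540 in the chosen nuclei, 17.1% to 29.4% had a Lamp5 UMI, 13.4% to 16.8% a Reln UMI and 0.905% to 3.16% an Ndnf UMI. Lamp5 is also known in cortical excitatory neurons. With every nucleus of at least 2000 UMIs thinned to 2000, a Lamp5 UMI was found in 10.9% to 14.5% of the chosen nuclei by library. The share was 3.38% to 6.56% in the excitatory nuclei, a gap that the rule itself favours. The limits of the rule cut through continuous counts. At the Adarb2 limit 39 nuclei had 3 UMIs and 44 further nuclei with 2 UMIs were outside. At the Lamp5, Ndnf and Reln limit 198 had 2 and 494 with 1 were outside, and at the Gad limit 172 had 1 and 359 with 0 were outside.

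**Figure D1:**
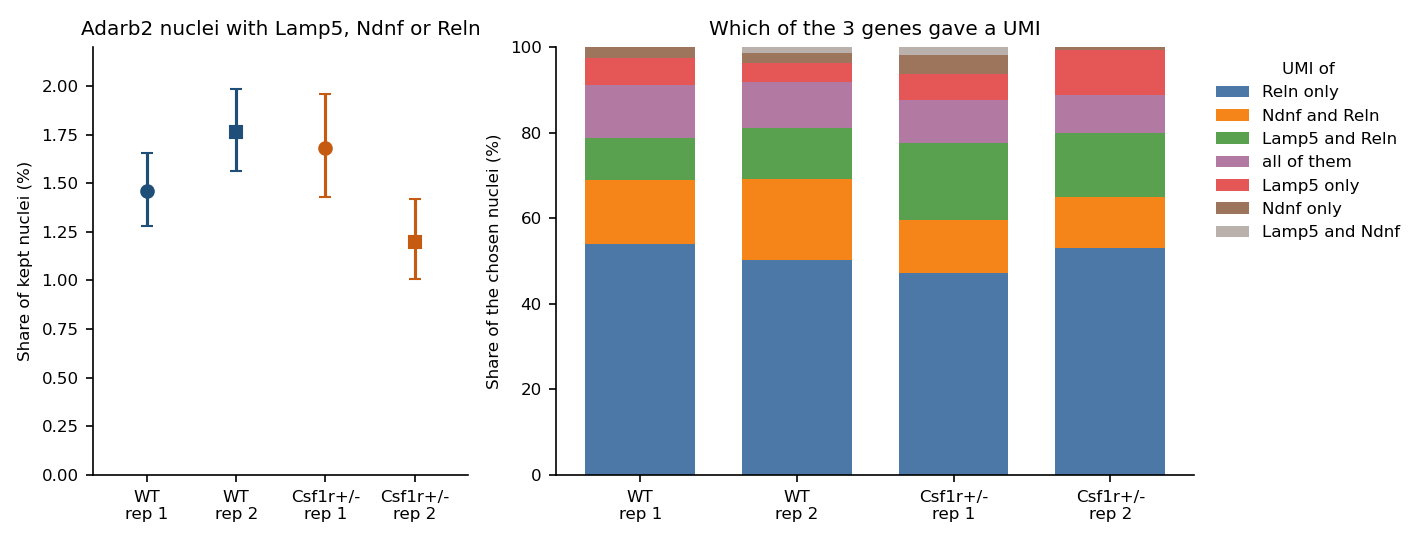
Left, the share of kept nuclei (%) that the rule took in each of the 4 libraries, with exact 95% binomial intervals that cover counting error only; the shares run from 1.20% to 1.76% and the genotypes overlap. Right, the chosen nuclei of each library (%) divided by which of Lamp5, Ndnf and Reln gave a UMI; Reln alone is the widest band in every library.

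Genes outside the rule differed in level between parts of the set, and the nuclei are therefore called Lamp5/Ndnf/Reln Adarb2 nuclei here, by the rule. Erbb4, the neuregulin receptor of most cortical interneurons, had a UMI in 719 of the 799 (90.0%), but also in 82.8% to 87.3% of oligodendrocyte nuclei and 27.1% to 56.0% of the shallower microglial nuclei, so this share does not tell what the nuclei are. Npy, the peptide of neurogliaform cells and of some Sst interneurons, had one in 139 (17.4%), at 17.4%, 18.2%, 16.8% and 16.4% by library, against 0.738% to 1.43% of the excitatory nuclei. The level of Npy was not called different from that of the Vip nuclei described below, and it was lower than in the Sst nuclei. Sncg, a marker of basket cells within the Adarb2 lineage, had 0 UMIs. Of the Cajal-Retzius markers, the defining Trp73 had 4 UMIs or fewer per library, Lhx5 likewise, Lhx1 2.43 to 12.4 CPM, Ebf2 3.82 to 16.8 CPM and Ebf3 3.82 to 12.4 CPM. The 5 striatal markers summed to 55.6, 116, 68.0 and 55.4 CPM, most of it Rgs9, and Lhx6, which marks interneurons of the medial ganglionic eminence, stood at 3.14, 2.30, 8.50 and 3.82 CPM.

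Meis2, a homeodomain factor of many subcortical and olfactory bulb GABA neurons, divided the set. It stood at 623, 757, 1058 and 519 CPM, highest in Csf1r+/- replicate 1 and lowest in Csf1r+/- replicate 2. Of the 799 nuclei, 421 had no Meis2 UMI and 315 (39.4%) had at least 2, at 33.2%, 46.5%, 49.1% and 24.6% by library. Meis2 UMIs, of any number, were found in 56.7% to 64.6% of excitatory nuclei, where the level was 266 CPM. The nuclei with at least 2 Meis2 UMIs differed in level from those with none, and were deeper in each library (a median of 8029 against 5647 UMIs over all libraries). Erbb4 stood at 3274, 2693, 2918 and 2767 CPM in the former and at 9230, 7228, 7684 and 8117 CPM in the latter. For Npas3, a transcription factor, the values were 350, 662, 307 and 658 CPM against 2207, 1684, 1619 and 1834 CPM, and for Npy 20.4, 16.5, 24.4 and 9.72 CPM against 128, 175, 120 and 139 CPM. None of these ranges overlapped, but the division was made after the values were seen and is not tested. A smaller subset of 79 nuclei (9.89%) carried Otx2os1, the RNA transcribed opposite to the homeobox gene Otx2, and 65 of them had neither Lamp5 nor Ndnf. These 79 nuclei had Erbb4 at 1104, 601, 1686 and 1967 CPM and Unc13c, a synaptic vesicle priming factor, at a mean of 947 CPM. The brains were not dissected, so the region of a nucleus cannot be told from the labels.

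The nuclei were next set against the other interneuron classes of the same libraries: 429 Vip nuclei (at least 2 Vip UMIs, no Sst), 547 Sst nuclei (at least 3 Sst UMIs, no Vip) and 89 Pvalb nuclei (at least 2 Pvalb UMIs, no Vip or Sst, at most 2 Adarb2). Genes used by either rule were left out of the tests. Since genes that travel with a rule's genes had to differ too, these comparisons describe how the classes differ and are no evidence that the classes exist. All 799 nuclei entered, and the comparisons were repeated with the 386 nuclei (121, 116, 68 and 81 by library) that had no UMI of Meis2 or Otx2os1, a choice made after seeing the data. Of the calls below, 249 of 351 against Vip, 297 of 406 against Sst and 563 of 752 against Pvalb nuclei were called again among these 386. A gene was called at an adjusted p under 0.05 with a change of at least 1 on the log2 scale (edgeR quasi-likelihood test on summed counts, library as a block, Benjamini-Hochberg adjustment). Where nothing says otherwise, levels are means of 4 libraries ± SD. Nuclei of a library share its free RNA and depth, and the median nucleus had 6540 UMIs here, 4771 in Vip, 6291 in Sst and 9274 in Pvalb nuclei.

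Against all 3 classes, 37 of 7679 genes tested in each were higher and 5 lower. Among the 386 nuclei without Meis2 or Otx2os1, 21 of the 37 and 3 of the 5 passed again, and some of the others could not be tested. Several transcription factors were among the 37. Meis2 reached 739 ± 234 CPM, against 133 in Vip, 172 in Sst and 297 in Pvalb nuclei. Foxp2, a forkhead factor, reached 367 ± 84.5 CPM, against 83.5, 60.1 and 51.5. Zfhx3 and Tshz1, both zinc finger factors of postmitotic neurons, reached 243 ± 24.3 and 97.5 ± 36.4 CPM. Among the 386 nuclei Foxp2 passed against none of the classes, at log2 differences of -0.30 (SE 0.23) from Vip, 0.32 (SE 0.23) from Sst and 0.54 (SE 0.27) from Pvalb nuclei. Zfhx3 stayed under the fold threshold in all 3 comparisons and Tshz1 did not pass against Vip nuclei (log2 0.33, SE 0.27). Genes of channels and receptors were others. Fgf13, an intracellular factor that binds sodium channels, stood at 1268 ± 101 CPM against 535, 285 and 414, and Cacna2d1, the alpha2delta-1 subunit of calcium channels, at 1003 ± 117 CPM against 473, 222 and 135. Gabra5, a subunit of extrasynaptic GABA-A receptors, stood at 88.7 ± 25.4 CPM against 27.6, 32.8 and 30.8. The extracellular matrix was represented by Vcan, the proteoglycan versican, at 54.8 ± 13.3 CPM against 6.34, 7.82 and 12.7, and by Hapln1, the link protein that ties such proteoglycans to hyaluronan, at 44.6 ± 9.57 CPM against 6.12, 3.36 and 9.69. Others were Pde11a, a phosphodiesterase of cyclic nucleotides, at 212 ± 60.2 CPM against 43.3, 16.1 and 11.5, and Sv2c, a synaptic vesicle protein, at 129 ± 33.4 CPM against 24.6, 21.8 and 34.9. Fgf13, Cacna2d1, Gabra5, Vcan, Hapln1, Pde11a and Sv2c passed against all 3 classes among the 386 nuclei too. The 5 lower genes included Rnf144b, a ubiquitin ligase, at a mean of 24.9 CPM against 133, 89.3 and 235, which passed there as well. Meis2 in the Pvalb nuclei of WT replicate 1 was 627 CPM, within the range of the Lamp5/Ndnf/Reln Adarb2 nuclei.

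**Figure D2:**
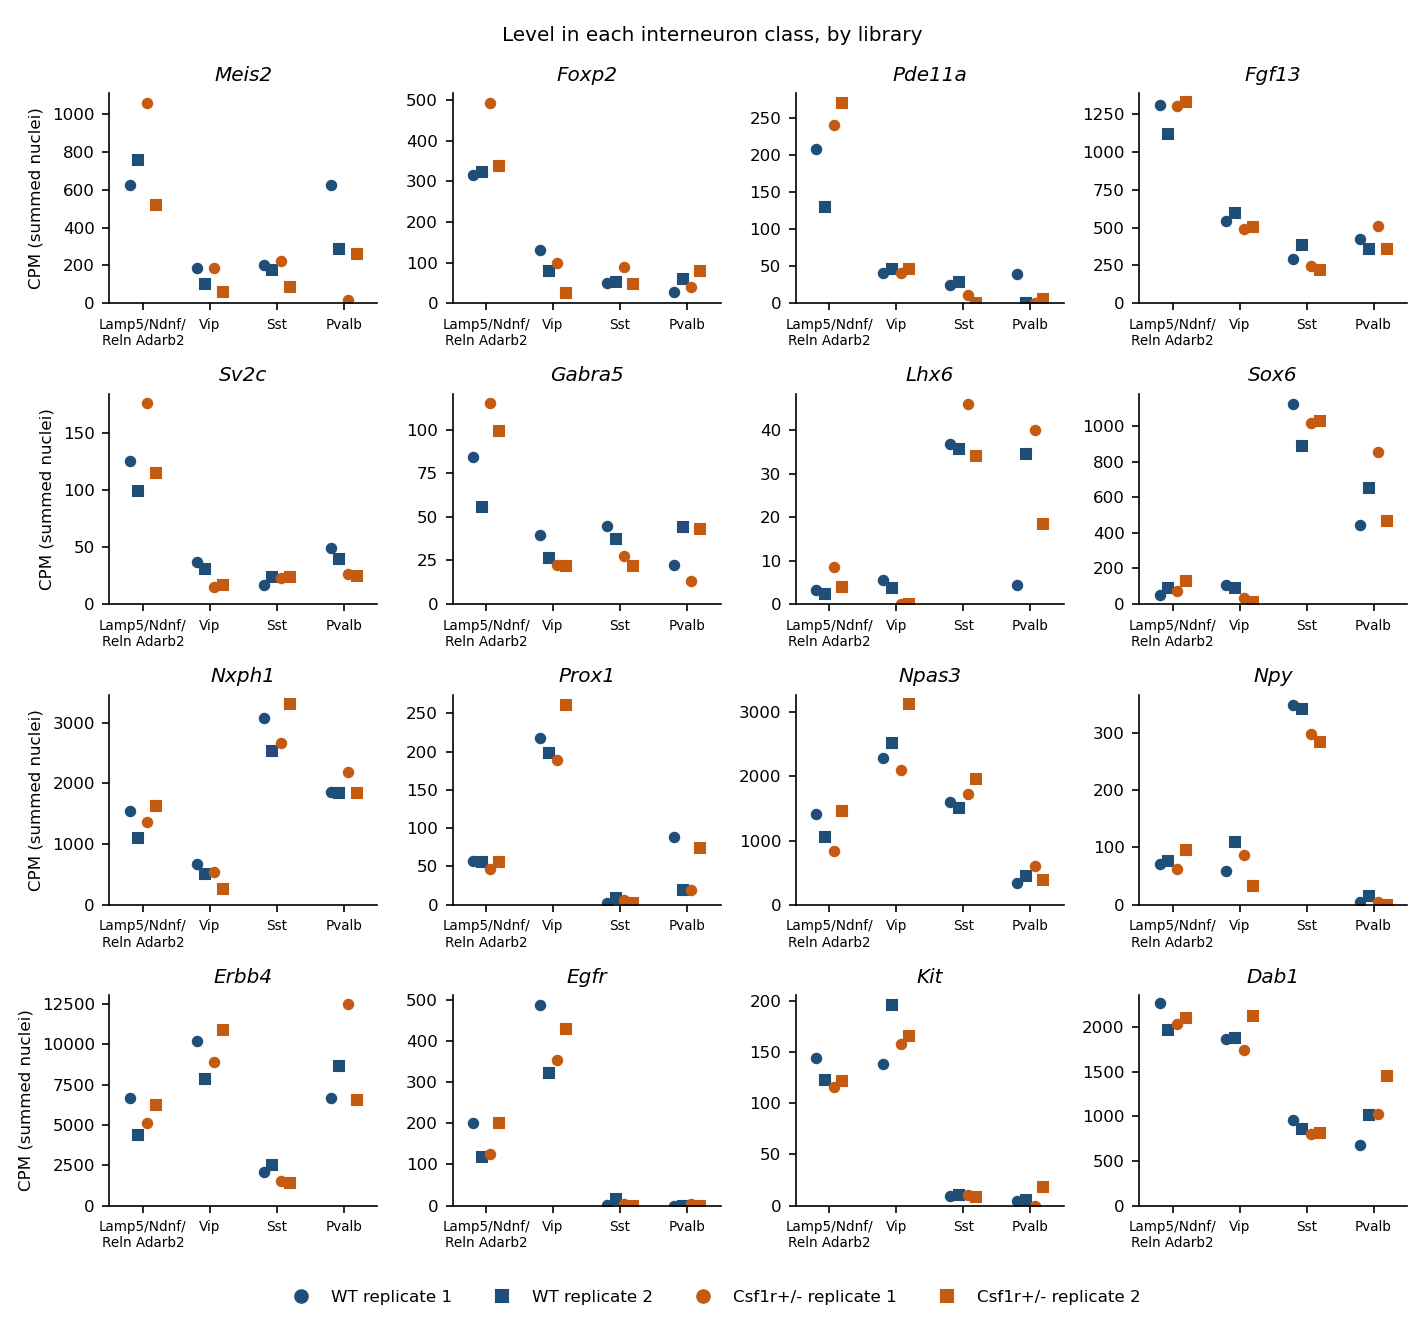
CPM of 16 genes in the summed nuclei of each interneuron class (linear axes from 0), 1 point per library, blue for WT and orange for Csf1r+/-, circles for replicate 1 and squares for replicate 2. The first 6 genes, Meis2 to Gabra5, are higher in all 799 Lamp5/Ndnf/Reln Adarb2 nuclei together than in the other classes, with 1 Pvalb library in the same range for Meis2, and Lhx6 and Sox6 are higher in the Sst and Pvalb classes on average.

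Vip nuclei differed in 351 of 7767 genes (4.52%), of which 171 (2.2%) were higher and 180 (2.32%) lower in the Lamp5/Ndnf/Reln Adarb2 nuclei. Of 11 tested peptide and signalling genes 7 were lower (Crh, Tac2, Cck, Calb2, Penk, Cxcl14 and Cnr1) and Calb1 was higher, with a median of -1.77 on the log2 scale against 0.00 over all tested genes. Crh, the corticotropin-releasing hormone gene, stood at 1.68 ± 0.790 CPM against 94.9 ± 38.1 CPM, and Tac2, the neurokinin B gene, at 3.34 ± 2.54 against 112 ± 22.3 CPM. Npy did not pass, at a log2 difference of -0.10 (SE 0.19, edgeR adjusted p = 0.82), but among the 386 nuclei the sign turned, at 0.95 (SE 0.16, edgeR adjusted p = 3.1e-05), just under the fold threshold. Of 7 tested caudal eminence factors 3 were lower, Prox1 by a log2 difference of -2.08 (SE 0.11), Npas1 and Npas3. Nxph1, a neurexin ligand otherwise known from the medial lineage, was higher (log2 1.39, SE 0.14) and Maf was lower. Erbb4 was lower by less than the threshold asked (log2 -0.85, SE 0.08), and Egfr passed as lower (log2 -1.42, SE 0.09) while Nrg1, a ligand of the ErbB receptors, was higher (log2 1.07, SE 0.09). Synpr, a synaptic vesicle protein, was lower at 303 ± 38.7 CPM against 1830 ± 175 CPM. Also higher were Ptprm, an adhesion phosphatase, Adamtsl1, an extracellular matrix protein, and Bcl11b, a zinc finger factor, and also lower were Grpr, the receptor of gastrin-releasing peptide, and Elfn1, a postsynaptic adhesion protein. Of 14 GABA receptor subunits 3 were higher (Gabra5, Gabrd and Gabrg1) and none was lower. Among the 386 nuclei without Meis2 or Otx2os1 the differences of Cnr1, Npas1, Npas3, Maf, Egfr and Nrg1 no longer passed. There Egfr stood at a log2 difference of -0.48 (SE 0.10), Npas3 at -0.42 (SE 0.09) and Erbb4 at -0.19 (SE 0.08), while Prox1 was still lower (log2 -1.32, SE 0.13) and Nxph1 still higher (log2 1.92, SE 0.12).

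Sst nuclei differed in 406 of 8008 genes (5.07%), 237 higher (2.96%) and 169 lower (2.11%). Of the medial eminence list 6 of 6 tested genes were lower, among them Lhx6, Sox6, Satb1, Maf and Nxph1, with a median of -2.33 on the log2 scale against -0.01 over all tested genes. Sox6 stood at 86.1 ± 31.7 CPM against 1013 ± 97.8 CPM in Sst nuclei. Of 7 tested caudal eminence factors 3 were higher: Nfib at 645 ± 49.4 against 80.2 ± 11.5 CPM, Prox1 at 53.4 ± 4.83 against 4.79 ± 3.18 CPM, and Nfix. Npas1 was lower. Egfr at 161 ± 45.6 CPM and Kit, a receptor tyrosine kinase, at 126 ± 12.6 CPM were higher than the 5.41 ± 7.62 and 9.57 ± 0.958 CPM of Sst nuclei. Erbb4 was higher (log2 1.59, SE 0.13), as was Dab1, which relays the reelin signal (log2 1.29, SE 0.08). Npy (log2 -2.08, SE 0.11), Cort, Nos1 and Calb1 were lower, and Cck, Cnr1 and Kit, from the same list of 7 tested peptide and signalling genes, were higher. Crhbp, which binds corticotropin-releasing hormone, stood at 2.15 ± 1.22 CPM against 77.2 ± 9.81 CPM. Among glutamate receptor subunits 4 of 22 were lower, among them Gria1, Grik3 and Grin3a, and none was higher. Among the 386 nuclei Nxph1 (log2 -0.55, SE 0.08), Maf and Npas1 no longer passed, and Npy was lower by -1.07 on the log2 scale (SE 0.10).

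Pvalb nuclei, the smallest class at 20, 22, 29 and 18 nuclei, differed in 752 of 8864 genes (8.48%), 439 higher (4.95%) and 313 lower (3.53%). Voltage-gated potassium channels differed in both directions. Of 16 tested, 4 were lower, among them Kcna1 and the Kv3 channel genes Kcnc1 and Kcnc2, and 6 were higher, among them Kcnd3, Kcnq5, Kcnb2, Kcna4 and Kcnh5. Kcnc1 was lower by a log2 difference of -1.52 (SE 0.15) and Kcnd3 higher by 2.71 (SE 0.25). Of 14 GABA receptor subunits 4 were higher (Gabra2, Gabra5, Gabrb1 and Gabrg1) and Gabrd was lower, whereas Gabrd was higher against Vip nuclei. Of 6 tested medial eminence genes 4 were lower, among them Lhx6, Sox6 and Satb1. Syt2, a fast calcium sensor of release, stood at 24.6 ± 9.20 CPM against 183 ± 49.8 CPM, and Eya4, a transcriptional coactivator, at 21.1 ± 9.51 against 231 ± 64.9 CPM. Egfr at 161 ± 45.6 CPM, Sema3c, a secreted semaphorin, at 81.3 ± 15.2 CPM and Igf1 at 81.7 ± 14.1 CPM were next to undetected in Pvalb nuclei, where their means were 0.667, 1.23 and 1.11 CPM. With every nucleus thinned to 2000 UMIs 396 genes passed in place of 752, and among the 386 nuclei Kcnb2 and Kcnh5 no longer passed.

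Within the set, nuclei with Lamp5 alone were compared with those with Reln alone. The Lamp5-only side was small, at 15, 12, 10 and 14 nuclei against 127, 135, 76 and 71, and deeper, with a median of 9220 UMIs against 6028. Of 8640 genes 155 differed (1.79%), 75 higher (0.868%) and 80 lower (0.926%) in Lamp5-only nuclei. Npy was higher at 179, 202, 106 and 368 CPM against 34.1, 26.4, 29.9 and 12.3 CPM, so that the lowest Lamp5-only library lay above the highest Reln-only one (log2 2.96, SE 0.31, edgeR adjusted p = 1.2e-05). Also higher were Kit at 176 ± 99.9 against 49.3 ± 9.49 CPM, Sv2c at 252 ± 95.8 against 55.6 ± 37.4 CPM, and Cpa6, a secreted carboxypeptidase, at 201 ± 147 against 24.1 ± 9.52 CPM. Htr1f, a serotonin receptor, stood at 361 ± 121 against 105 ± 17.9 CPM, and Egfr, Gabra5 and Grin2a, an NMDA receptor subunit, were higher as well. Of 22 tested glutamate receptor subunits Grin2a was the only 1 higher, and 2, Grik1 and Grin3a, were lower. Of 14 GABA receptor subunits Gabra5 was higher and Gabrg1 lower.

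The transcription factor lists did not lean to the Reln side as a whole. Of 6 tested caudal eminence factors 2, Npas3 and Nr2f2, were lower in Lamp5-only nuclei, with 3 of either sign, and of 5 tested lineage factors none passed, all with a positive sign (median 0.66 on the log2 scale, against -0.03 over all tested genes). Npas3 stood at 1926, 1232, 1086 and 1747 CPM in Reln-only nuclei against 134 ± 132 CPM in Lamp5-only nuclei (log2 -3.59, SE 0.38, edgeR adjusted p = 1.2e-05), and the highest Lamp5-only library, at 325 CPM, lay below all of these. Zfhx3 stood at 338 ± 59.0 against 63.1 ± 61.6 CPM, Sox6 at 137 ± 54.6 against 26.8 ± 32.1 CPM and Nr2f2 at 44.2 against 7.71 CPM. Tcf7l2, the effector of Wnt signalling that is abundant in thalamus and midbrain, stood at 54.4 ± 43.5 CPM against a mean of 2.00 CPM. Otx2os1 stood at 87.0, 94.0, 219 and 257 CPM against 0, 42.9, 0 and 0 CPM. Unc13c at 382 ± 90.7 against 73.9 ± 45.2 CPM and Cnr1, the cannabinoid receptor, were also higher on the Reln side. Meis2 did not pass (log2 0.29, SE 0.19, adjusted p = 0.65), nor did Erbb4 (log2 -0.49, SE 0.22, adjusted p = 0.34) or Nfib (log2 0.25, SE 0.28, adjusted p = 0.83). The count depended on method and library: it was 80 by DESeq2, 260 by the likelihood-ratio test and 63 without Csf1r+/- replicate 2.

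**Figure D3:**
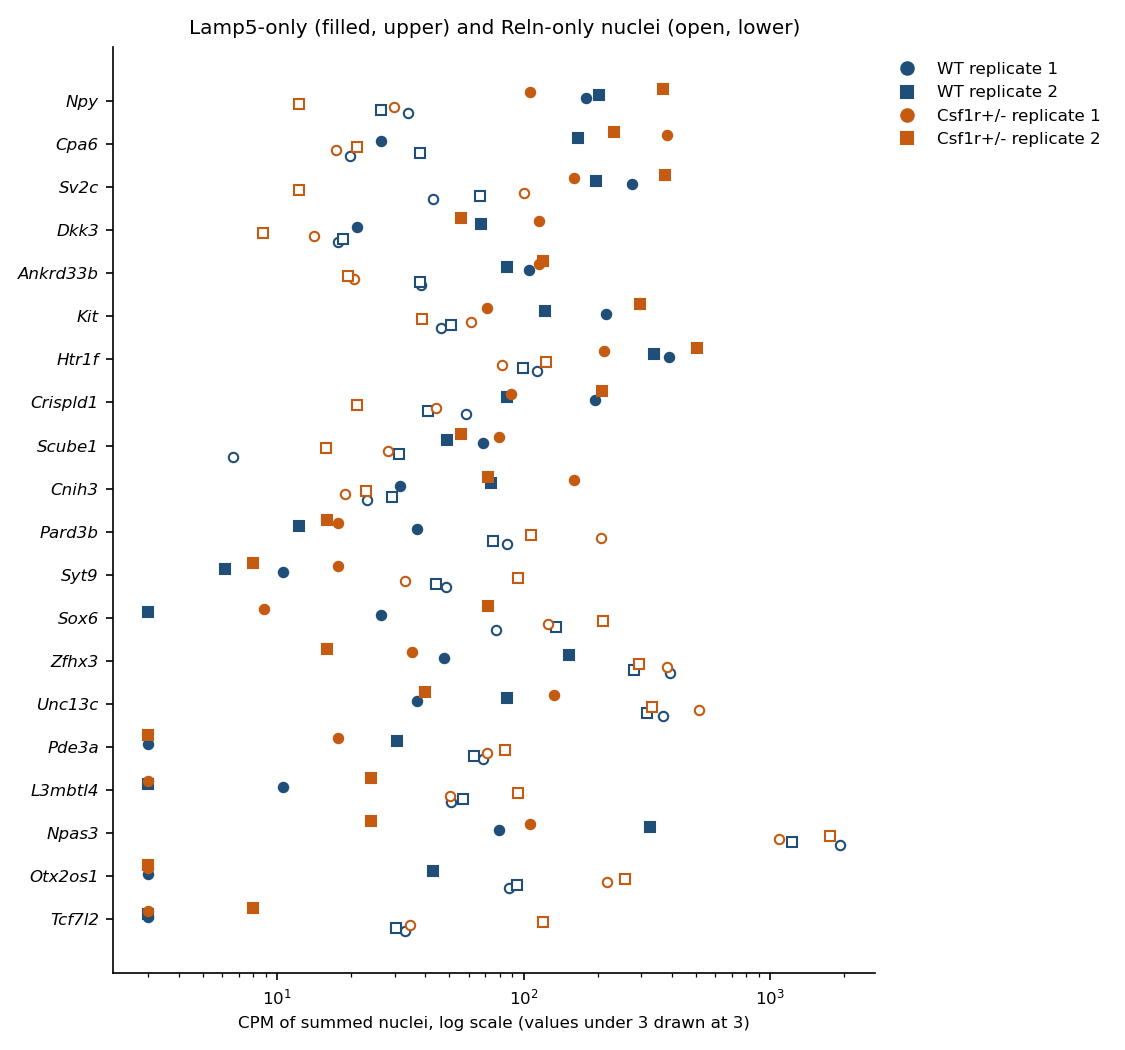
CPM (log axis) of the 20 genes named by rule in Lamp5-only nuclei (filled, upper points of each row) and Reln-only nuclei (open, lower points), 1 point per library. The upper 10 genes are higher in Lamp5-only and the lower 10 in Reln-only nuclei of the same library.

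Turning to genotype, the chosen nuclei made up 1.46%, 1.76%, 1.68% and 1.20% of kept nuclei, or 1.61% ± 0.216 in WT and 1.44% ± 0.340 in Csf1r+/- (SD, n = 2). The genotypes overlapped (exact two-sided permutation test, p = 0.667, where the smallest p possible is 0.333). As a share of GABA nuclei they were 6.62%, 6.84%, 7.05% and 6.55%, a difference of 0.0708 percentage points (exact permutation p = 1.0). Members that carried markers of other cells were also left out, while the GABA nuclei they were divided by were not filtered. This left 159, 132, 108 and 99 members of 235, 269, 161 and 134. The shares of GABA nuclei were then 4.48%, 3.36%, 4.73% and 4.84%, a difference of 0.867 percentage points with no overlap between genotypes (exact permutation p = 0.333, the smallest possible). The part of the unequal loss of members in this gap was not tested. In both measures leaving out 1 library turned the sign: the first became 0.0677 percentage points higher in Csf1r+/- without Csf1r+/- replicate 2, and the second was -0.0372 without WT replicate 1 and -0.179 without Csf1r+/- replicate 1. Within the set, an Erbb4 UMI was found in 93.6%, 92.2%, 84.5% and 85.8% of nuclei, so both Csf1r+/- libraries lay below both WT libraries. The same held among the 226, 261, 156 and 131 nuclei with at least 2000 UMIs, each thinned to 2000 (83.4% ± 1.51 in WT, 76.7% ± 0.578 in Csf1r+/-). The exact permutation p was 0.333 for both, the smallest possible with 2 against 2 libraries, and the summed Erbb4 level differed by 0.03 on the log2 scale (SE 0.23). The same order was found in several other classes. Thinned alike, the shares were 99.1%, 97.1%, 95.7% and 96.8% among Vip, 12.2%, 19.0%, 9.07% and 7.33% among excitatory and 40.7%, 56.0%, 27.3% and 28.6% among microglial nuclei, with both Csf1r+/- libraries below both WT libraries in each. The thinned shares overlapped between genotypes among Sst nuclei (57.1%, 69.1%, 58.7% and 50.0%) and oligodendrocyte nuclei (71.9%, 80.3%, 79.8% and 80.8%). Thinning left 121, 401, 198 and 125 of the 204, 668, 296 and 204 oligodendrocyte nuclei. Without thinning Sst nuclei had the order too, at 77.4%, 86.3%, 77.3% and 74.1%, and Vip nuclei, at 99.2%, 98.0%, 95.8% and 98.5%, did not. A Lamp5 UMI was found in 28.5%, 28.6%, 36.0% and 34.3%, but after thinning in 14.2%, 11.1%, 10.9% and 14.5%.

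At the threshold the study used (p under 0.01, a UMI in at least 10% of the nuclei of either genotype), but with edgeR's quasi-likelihood test, 35 of 8080 genes differed between Csf1r+/- and WT, 12 higher (0.149%) and 23 lower (0.285%). With the study's own likelihood-ratio test 61 passed, 18 higher and 43 lower. The count moved widely when 1 library was left out, and most without WT replicate 1. Such a fit has 1 library in a genotype, so its spread comes from the other genotype alone. The 35 were 0.433% of the genes tested, against 80.8 genes expected from the threshold alone if none differed. On simulated counts with the same depths and no shift between libraries, 0.635% of unchanged genes passed it. With all 4 libraries no gene passed at an adjusted p under 0.05 (edgeR quasi-likelihood test, smallest adjusted p = 0.571; 239 genes had an unadjusted p under 0.05; DESeq2 also called none and the likelihood-ratio test 3). The libraries of the genotypes did not overlap for any of the 35, nor for 30.0% of all tested genes. Genes below are given as values at the unadjusted threshold, and fewer nuclei of a kind and less RNA per nucleus cannot be told apart in the sums.

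Hs3st4, which adds sulfate to heparan sulfate chains, had the smallest p. It stood at 510, 545, 276 and 307 CPM, lower in both Csf1r+/- libraries (log2 -0.85, SE 0.14, edgeR adjusted p = 0.571). Hs3st4 did not pass the unadjusted threshold among nuclei without a Meis2 UMI (log2 -0.50, SE 0.19) or with every nucleus thinned to 2000 UMIs (log2 -0.50, SE 0.20). Nor did it pass when nuclei with markers of other cells were left out (log2 -0.40, SE 0.26). Otx2os1 was the first of the higher genes, at 54.0, 52.5, 103 and 151 CPM (log2 1.24, SE 0.21, edgeR adjusted p = 0.571). It was detected in 8.93% of WT and 11.5% of Csf1r+/- nuclei, so it entered the test only through the genotype where it was high. By library its UMIs came from 9.79%, 8.18%, 9.94% and 13.4% of the nuclei, and the level within those few nuclei was 615, 590, 1187 and 901 CPM. Among nuclei without Meis2 the difference was 0.28 on the log2 scale (SE 0.27) and did not pass, and without Csf1r+/- replicate 2 the gene fell under the 10% filter and was not tested.

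Other genes higher in Csf1r+/- at this threshold were Cables1, a partner of Cdk5, at 25.2, 24.9, 47.4 and 44.9 CPM, Klhl1, an actin-binding kelch protein, at 100, 125, 234 and 150 CPM, and St8sia1, the ganglioside GD3 synthase, at 48.7, 39.6, 68.6 and 71.7 CPM. Smim19, Rbbp8, Gpatch2l, Timmdc1 and Vegfc completed the higher genes named by the rule, with log2 differences of 0.64 to 1.25. Of these, Smim19 (7.94% of WT nuclei), Rbbp8 (8.33%) and Vegfc (7.94%) reached the 10% detection limit in Csf1r+/- alone, where they were high. Among the lower genes were Rorb, a nuclear receptor, at 137, 136, 90.5 and 88.9 CPM, Gsg1l, an AMPA receptor auxiliary subunit, at 67.1, 70.4, 45.6 and 35.4 CPM, Trpc6, a cation channel, at 40.9, 42.8, 23.7 and 12.4 CPM, C1ql3, a secreted synaptic organiser, at 20.4, 23.5, 7.29 and 11.5 CPM, and Spon1, an extracellular matrix protein, at 77.0, 73.2, 50.4 and 39.2 CPM. In each of these the WT libraries lay closer together than the Csf1r+/- libraries, and a choice of genes by small p favours libraries that lie close. Trpc6 (9.15% of Csf1r+/- nuclei) and C1ql3 (5.76%) reached the detection limit in WT alone, where they were high, as did Aldoc (5.76%). The remaining lower genes named by the rule were ones that glia or all cells express. Fth1, the ferritin heavy chain, stood at 94.9, 192, 59.5 and 49.7 CPM, Cst3, cystatin C, at 71.3, 152, 45.6 and 41.1 CPM, Aldoc, an aldolase of astrocytes, at 15.7, 33.6, 6.68 and 8.60 CPM, and Slc1a2, the glial glutamate transporter, at 196, 208, 143 and 114 CPM. WT replicate 2 was the highest library for all of them. A fit with 1 WT library takes its spread from the Csf1r+/- libraries alone, so it cannot decide which of these genes pass. Without WT replicate 2 the log2 differences were still negative, at -0.82 for Fth1, -0.63 for Slc1a2, -1.10 for Aldoc and -0.74 for Cst3. Without that library 47 of 8017 genes passed (0.586%), 26 higher (0.324%) and 21 lower (0.262%), and 12 of them were among the 35.

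**Figure D4:**
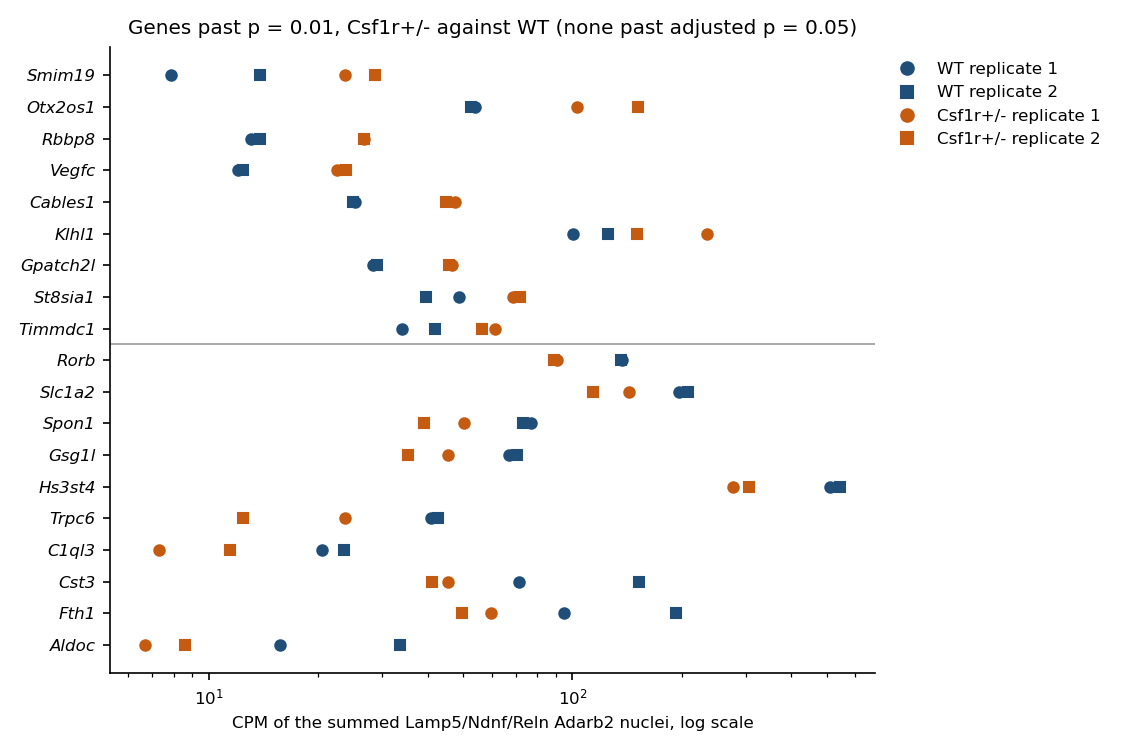
CPM (log axis) in the summed Lamp5/Ndnf/Reln Adarb2 nuclei of the 19 genes named by rule at p under 0.01, 1 point per library, blue for WT and orange for Csf1r+/-; genes above the line are higher and below it lower in Csf1r+/-. No gene passed the adjusted threshold, and WT replicate 2 (blue squares) stands well above WT replicate 1 for Fth1, Cst3 and Aldoc.

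No member of the lists named for the function of these cells was called between genotypes, which is near the 0.433% called over all genes and says nothing particular about the lists. None of 6 caudal eminence factors, 5 lineage factors, 4 medial eminence genes, 6 genes of GABA synthesis, packing and uptake, 14 GABA receptor subunits, 22 glutamate receptor subunits, 16 potassium channels, 6 neuregulin and ErbB genes, 6 genes of the reelin pathway or 6 peptide and signalling genes passed p under 0.01. The medians of these lists lay between -0.21 and 0.18 on the log2 scale, against 0.00 over all tested genes. Npy stood at 71.8, 76.4, 62.0 and 95.6 CPM and Dab1 at 2273, 1962, 2028 and 2103 CPM. On simulated counts with the same depths, 75% of genes changed by 1 on the log2 scale passed p under 0.01 in this design and 46% passed the adjusted threshold. The simulated spread followed a trend over all genes and held no shift of a library such as that of WT replicate 2. The changed genes were drawn from all tested genes, so these rates are not those of the listed genes.

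Cytosolic ribosomal protein genes had 1 sign. All 70 tested had a negative difference between Csf1r+/- and WT, with a median of -0.68 on the log2 scale, and 3 passed p under 0.01, among them Rplp1 and Rps29, where 0.433% of all tested genes passed and 0.285% as lower. Of the metallothionein, apolipoprotein, aldolase and ribosomal genes that the study discusses in neurons, chosen by the study on libraries that include these, 6 of 7 were tested, 6 had a negative difference with a median of -1.52, and Aldoc and Rps29 passed. The summed ribosomal level was 1525, 2843, 1460 and 1327 CPM, so WT replicate 2 was high and WT replicate 1 lay close to the Csf1r+/- libraries. Without WT replicate 2 the median of the ribosomal genes was -0.21 (36 of 56 tested negative) and that of the discussed genes -0.30 (5 tested). Without WT replicate 1 they were -0.98 and -2.07. These fits leave 1 WT library, so only the differences are given. With all 4 libraries but without members carrying markers of other cells, the ribosomal median was -0.64 (53 of 56 negative, 4 past the threshold). The median of the discussed genes was then -1.36 (6 tested, 3 past), and 47 of all 7163 genes passed. Thinned to 2000 UMIs the ribosomal median was -0.98 (8 tested, 3 past), and 32 of all 3422 genes passed. Mt1, a metallothionein that binds zinc and copper, stood at 14.7, 46.9, 12.8 and 5.73 CPM (log2 -1.64, SE 0.55, not past the threshold) and Apoe, an apolipoprotein, at 35.1, 135, 31.6 and 26.8 CPM, and in both WT replicate 1 lay close to Csf1r+/- replicate 1. Markers of other cells moved with the same library. The 7 oligodendrocyte markers summed to 93.3, 711, 199 and 92.7 CPM, led by Mbp, and none of them was at 0. The 7 astrocyte markers, led by Slc1a2, summed to 224, 271, 177 and 140 CPM, and the 8 microglial markers, led by P2ry12, to 76.5, 147, 77.2 and 101 CPM. The part of free or neighbouring RNA in these levels was not tested. The other interneuron classes showed WT replicate 2 highest for the ribosomal list too, with 3906 CPM in Vip nuclei against 1988, 1819 and 2009 CPM and 4075 CPM in Sst nuclei against 2349, 1979 and 1706 CPM.

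**Figure D5:**
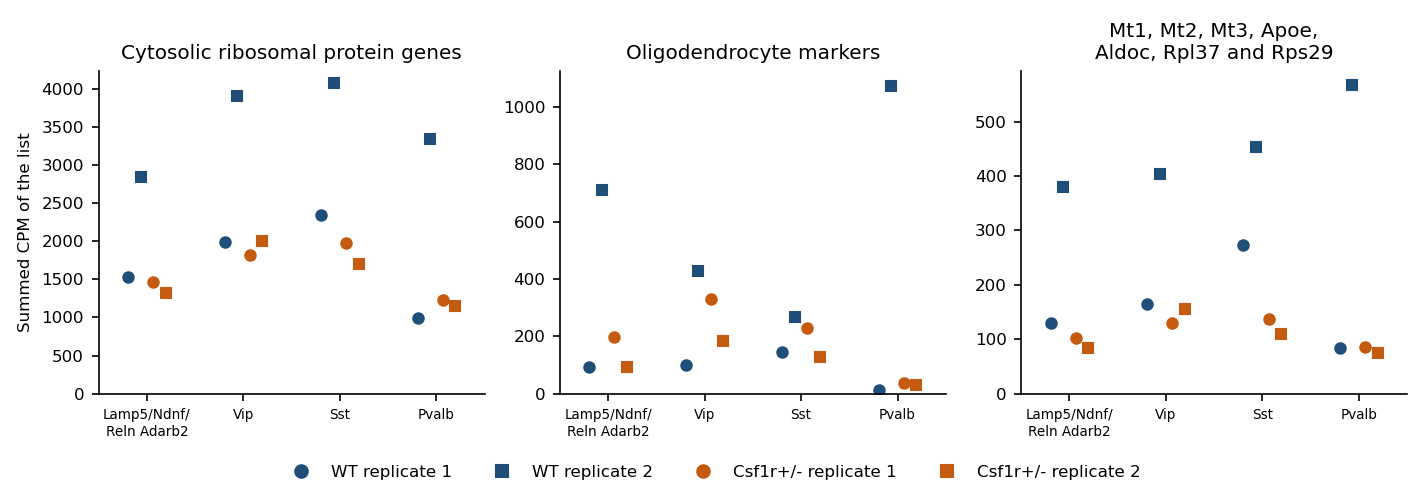
Summed CPM (linear axes from 0) of 3 gene lists in each interneuron class, 1 point per library, blue for WT and orange for Csf1r+/-, circles for replicate 1 and squares for replicate 2. WT replicate 2 is the highest library for each list in each class, and WT replicate 1 lies near the Csf1r+/- libraries for the ribosomal list in the Lamp5/Ndnf/Reln Adarb2 nuclei (1525 CPM against 1460 and 1327 CPM).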

How the data were processed

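Per the study's methods, nuclei were isolated without detergent, myelin debris was removed, and 3′ Chromium libraries were counted with Cell Ranger (5.0.0 per the file headers; mm10 per the submitters' processing notes). The authors deposited raw UMI counts for each gene in each nucleus, with no scaling; no correction for free RNA was made here. The files held 16415, 16301, 9905 and 11369 barcodes. The study's limits on UMIs (500 to 50000), genes (over 200) and mitochondrial share (below 5%) left 16114, 15247, 9589 and 11182 nuclei, with 111488169, 88097109, 88147428 and 89314464 UMIs. No doublet caller was run; instead, members with a UMI of Slc17a7 or Slc17a6, or 3 or more UMIs of a glial or endothelial list, were left out as an alternative. The members, gene lists and tests were chosen with earlier results of these data known.

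Counts of the members were summed per library and tested with edgeR 4.0.16 (R 4.3.3, quasi-likelihood, TMM scaling), without the 9 genes of the rule, in genes with 10 or more counts that 10% or more of the nuclei on 1 side carried. DESeq2 1.42.0 and the likelihood-ratio test were alternatives, beside other scaling, no detection filter, stricter rules, thinning to 2000 UMIs, members without Meis2 or Otx2os1 and leaving out each library. Shares of nuclei after thinning leave out nuclei with under 2000 UMIs. Nothing in the labels says how libraries were batched. With all 4 libraries the p-values between genotypes rest on 2 mice per genotype. The quasi-likelihood test draws each gene's spread towards a trend over all genes, so they rest partly on the spread of other genes. Without 1 library a genotype has 1 mouse, so the spread comes from the other genotype alone and the counts of such fits show only how far they move. Intervals cover counting error only. Gene positions come from GENCODE M21, in which 31011 of 31053 gene rows matched. Named genes were, between genotypes, up to 10 higher and 10 lower with the smallest p among those past p under 0.01 whose genotypes did not overlap and, between classes, those with the largest fold change among those with at least 50 CPM and the same direction in 4 of 4 libraries, passing over identifier names, together with the genes of the rule and of the 24 lists. Genes named within the set by Meis2 and Otx2os1, and the count over all 3 classes, were chosen after their values were seen. The edgeR steps were tested on simulated data. Some listed genes are not reported here by name.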

Additional observations from a re-analysis of the deposited data

How the results depend on the processing

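Among the shares, the difference between genotypes changed sign with the choices. Of kept nuclei it was 0.0796 percentage points with members carrying markers of other cells left out (159, 132, 108 and 99 members remained). The kept nuclei they were divided by were not filtered. With each library left out it was -0.413 to 0.0677. Of GABA nuclei it was 0.867 with the same members left out and 0.444 without members with a Meis2 UMI (added after seeing the data). In both, the GABA nuclei themselves were not filtered. It was -0.244 thinned to 2000 UMIs, -0.224 among nuclei with at least 2000 UMIs, and -0.179 to 0.321 with each library left out.

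Between genotypes 61 genes passed p under 0.01 by the likelihood-ratio test, 14 by DESeq2, 59 without the detection filter, and 57 among nuclei without a Meis2 UMI, an alternative added after seeing the data. With each library left out the count ran from 27 to 155, the highest without WT replicate 1. At an adjusted p under 0.05 the likelihood-ratio test called 3, and leaving out libraries gave 0 to 11. With the replicate number as a block 61 passed, and 33 of them were among the 35. The deviations of same-numbered libraries had a correlation of -0.0134. With 2 libraries per genotype both pairs give the same value by construction, so it cannot tell whether the numbers pair the mice. DESeq2 shared 13 of its 14 with the 35. None of the 22 named or listed genes past p under 0.01 kept that side in every refit, and none changed sign.

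Between classes, leaving out the detection filter gave 560 genes against Vip and 741 against Sst nuclei, and thinning gave 396 against Pvalb nuclei. Lamp5-only against Reln-only nuclei gave 80 genes by DESeq2, 260 by the likelihood-ratio test and 63 to 154 with each library left out. The cause was not tested. Without the nuclei that had a UMI of Meis2 or Otx2os1, added after seeing the data, 392 genes were called against Vip, 478 against Sst and 790 against Pvalb nuclei, and Foxp2 changed sign against Vip nuclei (-0.30); no other called class difference that is named or listed changed sign in any refit. With 2 libraries per genotype, shares could not pass 0.05.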

Other observations

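Some single genes not described above also differed between the classes, from lists of which few genes could be tested. Rgs9, a regulator of G protein signalling best known from striatal neurons and the only 1 of 5 striatal markers tested against Vip or Pvalb nuclei, was higher in the Lamp5/Ndnf/Reln Adarb2 nuclei than in Vip nuclei (log2 1.19, SE 0.25, edgeR adjusted p = 0.0013) and than in Pvalb nuclei (edgeR adjusted p = 1e-05, with a Pvalb mean of 2.47 CPM), at 30.4, 86.5, 36.4 and 44.0 CPM, with WT replicate 2 the highest. Without that library the difference from Vip nuclei no longer passed, and among nuclei without Meis2 or Otx2os1 Rgs9 did not pass the filters and was not tested against either class. Against Sst nuclei it did not pass in all 799 nuclei (log2 -0.14) and was lower in the 386 without Meis2 or Otx2os1 (log2 -2.04, SE 0.23, edgeR adjusted p = 5.2e-07). Of 10 immediate early genes 3 were tested against Vip and 2 against Pvalb nuclei: Fos (log2 -1.53, SE 0.30) and Egr1 (log2 -1.14, SE 0.23) were lower than in Vip nuclei, and Egr1 was higher than in Pvalb nuclei (edgeR adjusted p = 0.034), but not past the threshold without the nuclei that had Meis2 or Otx2os1. Il34, the neuronal ligand of the CSF-1 receptor and the only 1 of 3 genes of that list tested against Sst nuclei, was lower than in Sst nuclei (log2 -1.75, SE 0.20, edgeR adjusted p = 6.6e-07) and stood at 13.1, 12.4, 10.3 and 14.3 CPM.

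Among potassium channels, Kcnc2 was lower in Lamp5-only than in Reln-only nuclei (log2 -1.41, SE 0.21) and Kcnh5 and Kcnh7 were higher. Against Sst nuclei Kcnq5 (log2 1.37, SE 0.10) and Kcnh7 were higher and Kcnc2 was lower (log2 -1.44, SE 0.10). Gabrg1, a GABA receptor subunit, was lower in Lamp5-only than in Reln-only nuclei (log2 -1.82, SE 0.45, edgeR adjusted p = 0.030).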
